A study of Arabidopsis thaliana with 163 samples.

Results

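WRKY transcription factor genes of Arabidopsis thaliana were followed through every deposited list of histone domains and MYC2 peaks. They were taken from a fixed list of loci, 60 of the 27432 protein-coding nuclear genes of TAIR10, and a domain or peak was assigned to a gene when it covered at least 1 bp of the gene body or of the 1000 bp before the gene start. In the annotation 57 of these loci carry their WRKY number as symbol and 3 another symbol, namely ZAP1 (WRKY1), TTG2 (WRKY44) and ABO3 (WRKY63). By the structure of their WRKY domains, 11 of them belong to group I, 3 to IIa, 8 to IIb, 15 to IIc, 7 to IId, 7 to IIe and 9 to group III. Below, the family and its groups mean these listed loci only, and the counts do not cover WRKY genes outside the list.

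WRKY proteins are plant transcription factors whose WRKY domain, built around a zinc finger, binds W-boxes, short promoter elements with the core TTGAC. Many WRKY genes are induced within minutes to hours of pathogen contact, and the family regulates the balance between salicylic acid and jasmonic acid (JA) defences, next to roles in senescence, phosphate starvation and development. WRKY promoters often hold W-boxes themselves, so that members act on their own genes and on each other. Of the histone marks measured here, acetylation of histone H3 at lysine 9 (H3K9ac) and trimethylation at lysine 4 (H3K4me3) lie at the starts of active genes, trimethylation at lysine 36 (H3K36me3) lies over transcribed gene bodies, and trimethylation at lysine 27 (H3K27me3) is the Polycomb mark of genes held silent. MYC2 is the basic helix-loop-helix factor that switches on JA responses and binds the G-box CACGTG and related sequences.

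The study developed PHILO ChIP-seq (Plant HIgh-throughput LOw input chromatin immunoprecipitation sequencing) and used it to follow H3K9ac in seedlings exposed to JA. Libraries came from 10-day-old whole seedlings of wildtype Col-0, untreated or exposed to gaseous methyl jasmonate for 2 h (2 h JA). Untreated H3K9ac was measured in 2 libraries made by regular ChIP-seq and in 3 PHILO libraries, and H3K4me3, H3K36me3 and H3K27me3 in 3 untreated PHILO libraries each, merged before domains were called. JA changes in H3K9ac came from 2 experiments, the large-scale experiment and the time course, each with 3 control and 3 2 h JA libraries that were merged into 1 count per condition. MYC2 peaks came from a list over 2 libraries each of control and 2 h JA. According to the methods these were made from myc2 plants that carry a MYC2:MYC2-FLAG transgene, whereas their sample records give Col-0, untreated and an H3K9ac antibody. The libraries of JA pathway mutants, of other JA times and of RNA polymerase II came without a list of domains and were not analysed here.

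The 5 untreated H3K9ac libraries had between 14046 and 14969 domains with 8986137 to 13807286 reads in them. Domains were called against IgG, and the same control count stood beside the same interval in different lists (83 IgG reads at WRKY1 in 4 of the 5 lists and in the H3K4me3 list), so that levels over IgG in all lists share this control. The active seedling genes ACT2, CAB1, RBCS1A and UBQ10 carried H3K9ac in all 5 libraries together with H3K4me3. Of these, CAB1 and RBCS1A had no H3K36me3 domain, and RBCS1A and UBQ10 were also listed with H3K27me3 (log2 over IgG of 2.03 and 0.24). The floral gene AG and the seed storage gene CRA1 carried H3K27me3 alone (log2 over IgG of 3.06 and 3.13). A further H3K9ac list, pooled and filed with the PHILO libraries, followed the sum of the 2 regular libraries at 865 identical domains (SD of the log2 ratio 0.0941, median ratio 1.02) more closely than the sum of the 3 PHILO libraries (0.211 and 0.659), and it is used below only as a pooled list. Whole seedlings mix cell types, so a mark in few cells and a weak mark in many cannot be told apart. The lists hold only called domains, so a member without a domain has no value, which does not show that the mark was absent.

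In untreated seedlings, WRKY genes carried H3K9ac about as often as other genes, H3K36me3 less often and H3K27me3 more often. H3K9ac domains were found at 40, 40, 44, 41 and 40 of the 60 members in regular replicates 1 and 2 and PHILO replicates 1, 2 and 3 (67.7%, 67.4%, 70.3%, 68.9% and 69.0% of all protein-coding genes). In all 5 libraries 38 members were acetylated, 63.3% of the family beside 65.4% of all genes, and 14 were in none of them (23.3% beside 28.1%). The pooled H3K9ac list held 47 members (78.3% beside 70.8%). H3K4me3 covered 41 members (68.3% beside 67.7%), H3K36me3 covered 21 (35.0% beside 60.7%) and H3K27me3 covered 34 (56.7% beside 38.2%). These shares are descriptions without a test, because each mark list is 1 pooled sample and the loci of a family are not replicates.

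**Figure D1:**
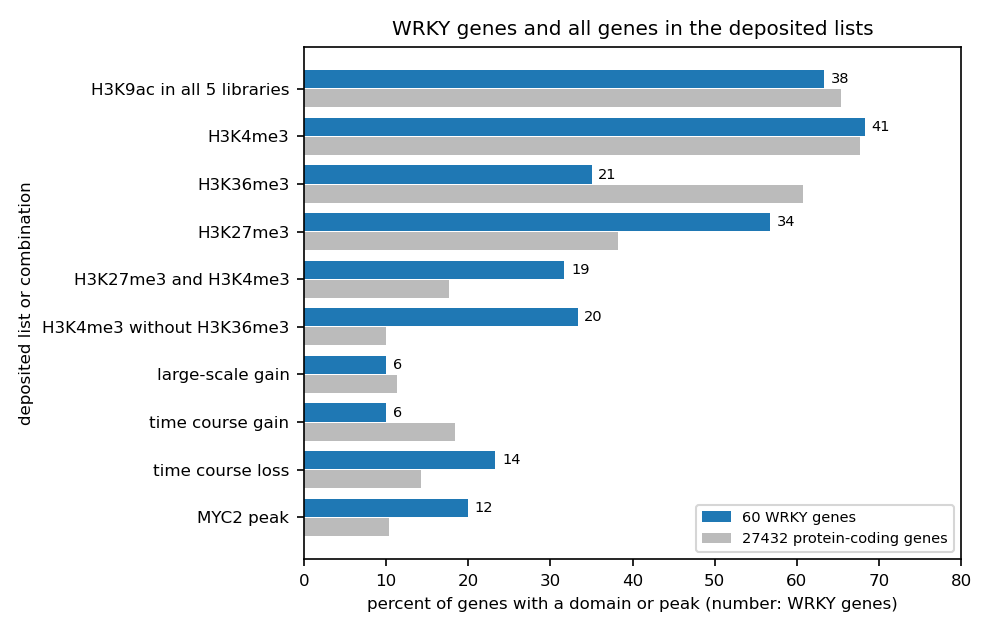
Percent of the 60 WRKY genes and of the 27432 protein-coding genes with a domain or peak in each list. The bars of the family stand below those of all genes for H3K36me3 (35.0% beside 60.7%) and time course gain (10.0% beside 18.4%). They stand above them for H3K27me3 (56.7% beside 38.2%), time course loss (23.3% beside 14.2%) and MYC2 (20.0% beside 10.3%). The same holds for H3K27me3 with H3K4me3 (31.7% beside 17.6%) and for H3K4me3 without H3K36me3 (33.3% beside 9.98%). The other bars differ less.

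Among members acetylated in all 5 libraries, the highest means over these libraries were at WRKY7, WRKY11 and WRKY22. In the regular libraries alone WRKY7 was followed by WRKY69 and WRKY3 (means 1.80 and 1.76). WRKY7 (AT4G24240), a calmodulin-binding member of group IId, had log2 values over IgG of 2.41 and 2.53 in the regular libraries and 2.86, 3.11 and 3.14 in the PHILO libraries. WRKY11 (AT4G31550), a group IId negative regulator of basal resistance to bacteria, had 1.57 and 1.38 and then 2.38, 2.73 and 2.85. At both genes the 3 PHILO libraries stood above the 2 regular ones without overlap, as at 90.3% of genes acetylated in all 5 libraries. WRKY22 (AT4G01250), which acts downstream of the MAP kinase cascade started by bacterial flagellin, had 1.45 and 1.45 in the regular libraries and 1.98, 2.97 and 2.89 in the PHILO libraries. Its lowest PHILO value came from a domain of 3400 bp and the others from domains of 1800 bp.

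The lowest means over the 5 libraries were at WRKY29, WRKY6 and WRKY40, all of them also in H3K27me3 domains. In the regular libraries alone WRKY18, which had no H3K27me3 domain, was lowest (mean 0.58). WRKY29 (AT4G23550), the partner of WRKY22 in the flagellin pathway, had 0.48 and 0.72 in the regular libraries and 1.07, 0.70 and 0.83 in the PHILO libraries, which overlapped. WRKY6 (AT1G62300), a regulator of senescence and of phosphate transport, had 0.83 and 0.50 and then 0.94, 1.17 and 1.04. WRKY40 (AT1G80840), which with WRKY18 and WRKY60 of group IIa represses basal defence, had 0.85 and 0.94 and then 1.19, 0.89 and 1.16, again with overlap between the methods. The means and SDs of these members were 0.60 ± 0.18 (SD, n = 2) and 0.87 ± 0.18 (SD, n = 3) for WRKY29, 0.66 ± 0.23 and 1.05 ± 0.12 for WRKY6, and 0.89 ± 0.07 and 1.08 ± 0.17 for WRKY40.

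At some members the libraries differed both in level and in how far the domain was called. At WRKY48 (AT5G49520), a repressor of basal defence, domains of 6600 and 8800 bp gave 0.66 and 0.64 in the regular libraries, a domain of 5600 bp gave 0.95 in PHILO replicate 1, and domains of 1000 and 1200 bp gave 2.41 and 1.87 in PHILO replicates 2 and 3. WRKY57 (AT1G69310), a drought and leaf senescence regulator that interacts with JA repressors, showed the same split, with 1.22 from 2800 bp in PHILO replicate 1 and 2.42 and 2.31 from 800 bp in the others. These 2 genes had PHILO SDs of 0.74 and 0.66 (n = 3). At WRKY40, by contrast, domains of 4600 and 1000 bp gave 1.19 and 1.16. The part of domain width in such differences was not tested.

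**Figure D2:**
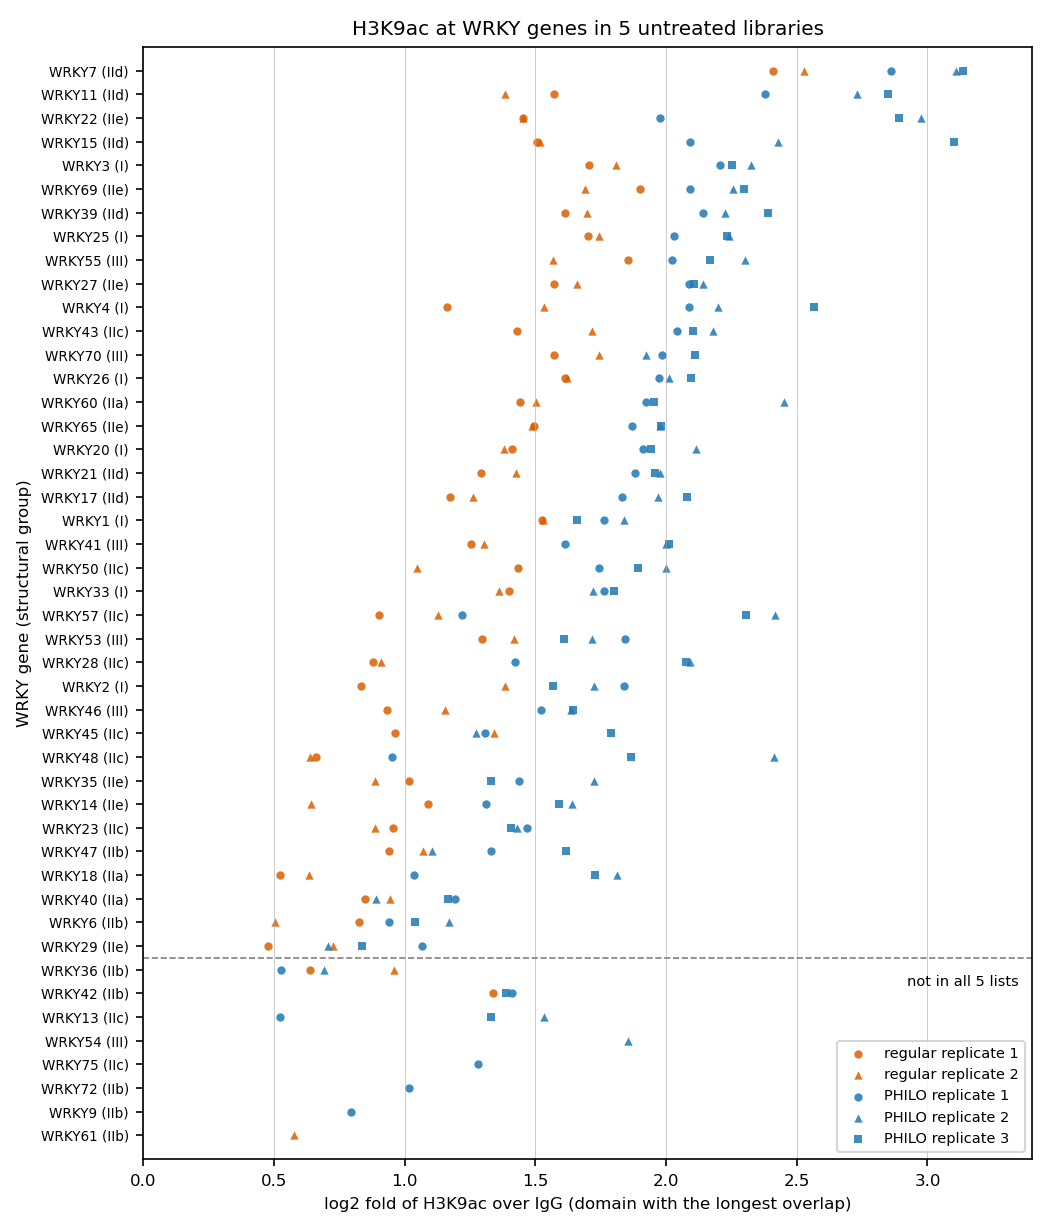
H3K9ac log2 enrichment over IgG (x axis) at each WRKY gene with a domain in at least 1 of the 5 untreated libraries (y axis), 1 point per library, regular and PHILO libraries in different colours. WRKY7 stands highest, with 2.41 to 3.14. In 35 of the 38 members with 5 values the 3 PHILO points lie above both regular points (92.1% beside 90.3% of genes acetylated in all 5 libraries).

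A further 8 members were acetylated in some libraries only (13.3% beside 6.49% of all genes), 5 of them in group IIb. WRKY36 (AT1G69810), a regulator of hypocotyl growth in light, was listed in 4 libraries, at 0.64 and 0.96 in the regular and 0.53 and 0.69 in PHILO replicates 1 and 2. WRKY42 (AT4G04450), a phosphate transport regulator, was listed in 3 (1.34 in regular replicate 1, 1.41 and 1.39 in PHILO replicates 1 and 3). WRKY13 (AT4G39410), which affects stem cell walls and flowering time, was listed in the 3 PHILO libraries alone, at 0.52, 1.53 and 1.33. The others each appeared in 1 library, namely WRKY54 in PHILO replicate 2 (1.86), WRKY75, WRKY72 and WRKY9 in PHILO replicate 1 (1.28, 1.02 and 0.79) and WRKY61 in regular replicate 2 (0.58). The domains of these 8 genes held 93 to 488 reads. PHILO replicate 1, in which WRKY75, WRKY72 and WRKY9 were listed alone, had the most reads in domains of the 5 libraries, and the part of depth in these calls was not tested.

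WRKY genes had higher levels over IgG in PHILO than in regular libraries, as genes in general did, and no member was called different once library medians were aligned. Before alignment, all 3 PHILO libraries stood above both regular ones at 35 of 38 members, 92.1% beside 90.3% of the 17938 genes acetylated in all 5 libraries. The exceptions were WRKY29, WRKY40 and WRKY45, and the median difference was 0.55 on the log2 scale over members and 0.54 over genes. After each library's median was subtracted, limma called 0 of the 38 members at an adjusted p of 0.05 (0.173% of genes higher and 0.262% lower in PHILO), with 4 members and 2807 genes at an unadjusted p under 0.05. WRKY11 came closest, with a PHILO minus regular difference of 0.63 (SE 0.14) and a limma adjusted p of 0.1717. WRKY1, WRKY40 and WRKY17 were next, at -0.32 (SE 0.09), -0.36 (SE 0.12) and 0.20 (SE 0.08), with limma adjusted p-values of 0.2238, 0.2735 and 0.3128. Without the alignment 34 of the 38 members were called, so these calls depend on the scaling. The edgeR test on reads covered 1167 domains with identical ends in all 5 lists, called 12.8% of them higher and 10.9% lower in PHILO, and included no domain at a WRKY gene.

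H3K27me3 was the mark in which the family stood farthest above the share of all genes, and it followed the structural groups. All 8 members of group IIb and 13 of the 15 of group IIc lay in H3K27me3 domains, beside 5 of 7 in IIe and 5 of 9 in group III, and beside 1 of 11 in group I, 1 of 3 in IIa and 1 of 7 in IId. H3K36me3 ran the other way, at 8 of 11 in group I and 5 of 7 in IId but at 0 of 8 in IIb and 4 of 15 in IIc. H3K4me3 was listed at 8 of 11 in group I, 3 of 3 in IIa, 4 of 8 in IIb, 8 of 15 in IIc, 6 of 7 in IId, 6 of 7 in IIe and 6 of 9 in group III. The median H3K27me3 level was 2.41 on the log2 scale over IgG in group IIb and 2.47 in IIc, with a median of 100% of the gene body covered in both.

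The 34 members lay in 33 separate H3K27me3 domains, since the neighbours WRKY54 and WRKY55 shared 1 domain of 5.8 kb. Their median width was 5.8 kb, and 24 gene bodies were covered whole. The median over the whole H3K27me3 list was 2.6 kb, which is not a matched value. Picking domains by overlap with a gene window favours wide ones, and the median over domains at all coding genes was not computed. In 17 cases the domain touched no other coding gene. Matching shares over all genes were not computed for whole bodies or for domains with a single coding gene. The highest level was at WRKY12 (AT2G44745), which restrains secondary wall formation in stem pith, with 4946 reads beside 377 in IgG and a log2 level of 2.87 (95% binomial interval 2.72 to 3.02). WRKY8 (AT5G46350) followed with 10001 reads beside 786 and 2.82, and WRKY28 (AT4G18170), an activator of the salicylic acid gene ICS1, with 2086 beside 179 and 2.70. The lowest was WRKY30 (AT5G24110) with 664 reads beside 209 and 0.82. These intervals cover counting error only, here and below. The widest domains were those over WRKY31 (25.6 kb, with 5 coding genes), WRKY35 (20.6 kb, 4 genes) and WRKY6 (20.0 kb, 5 genes).

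In many WRKY genes H3K27me3 and the active marks were listed together. H3K27me3 and H3K4me3 both reached 19 members (31.7% beside 17.6% of all genes), and at 17 of them both marks lay on the gene body itself (28.3% beside 7.37%). These 17 included WRKY6, WRKY28, WRKY48, WRKY54, WRKY57, WRKY70 and WRKY75, the last a phosphate starvation gene. Another 15 members had H3K27me3 without H3K4me3 (25.0% beside 20.7%), among them WRKY8, WRKY12, WRKY31 and WRKY10, a seed size regulator of the endosperm. Coverage was partial at WRKY17, where H3K27me3 took 28.3% of the body, at WRKY40 (61.9%) and at WRKY23 (78.3%), an auxin-responsive developmental gene. In whole seedlings, 2 marks on 1 gene in the same cells and in different cells cannot be told apart.

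H3K4me3 without H3K36me3 was the other combination with a share unlike that of all genes, at 20 members (33.3% beside 9.98%). Of the 34 members with H3K27me3, 55.9% had H3K4me3 and 8.82% had H3K36me3, beside 46.0% and 32.6% of all genes with H3K27me3. Of the 41 members with H3K4me3, 51.2% also had H3K36me3, beside 85.3% of all genes with H3K4me3. Among the 38 members acetylated in all 5 libraries, 37 had H3K4me3 (97.4% beside 97.5%) but 21 had H3K36me3 (55.3% beside 86.4%) and 16 had H3K27me3 (42.1% beside 25.0%). The 20 members included WRKY46, WRKY54 and WRKY70 of group III, and WRKY40 and WRKY60 of IIa. Median gene length was 2124 bp over all 60 members and 2078 bp over all genes, and its part in these shares was not tested. The 16 acetylated members with H3K27me3 had a median H3K9ac level of 0.98 in regular and 1.80 in PHILO libraries, below the 1.42 and 2.01 of the 22 without it. Over all genes the same medians were 1.39 and 1.93 with H3K27me3 and 1.47 and 2.01 without.

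**Figure D3:**
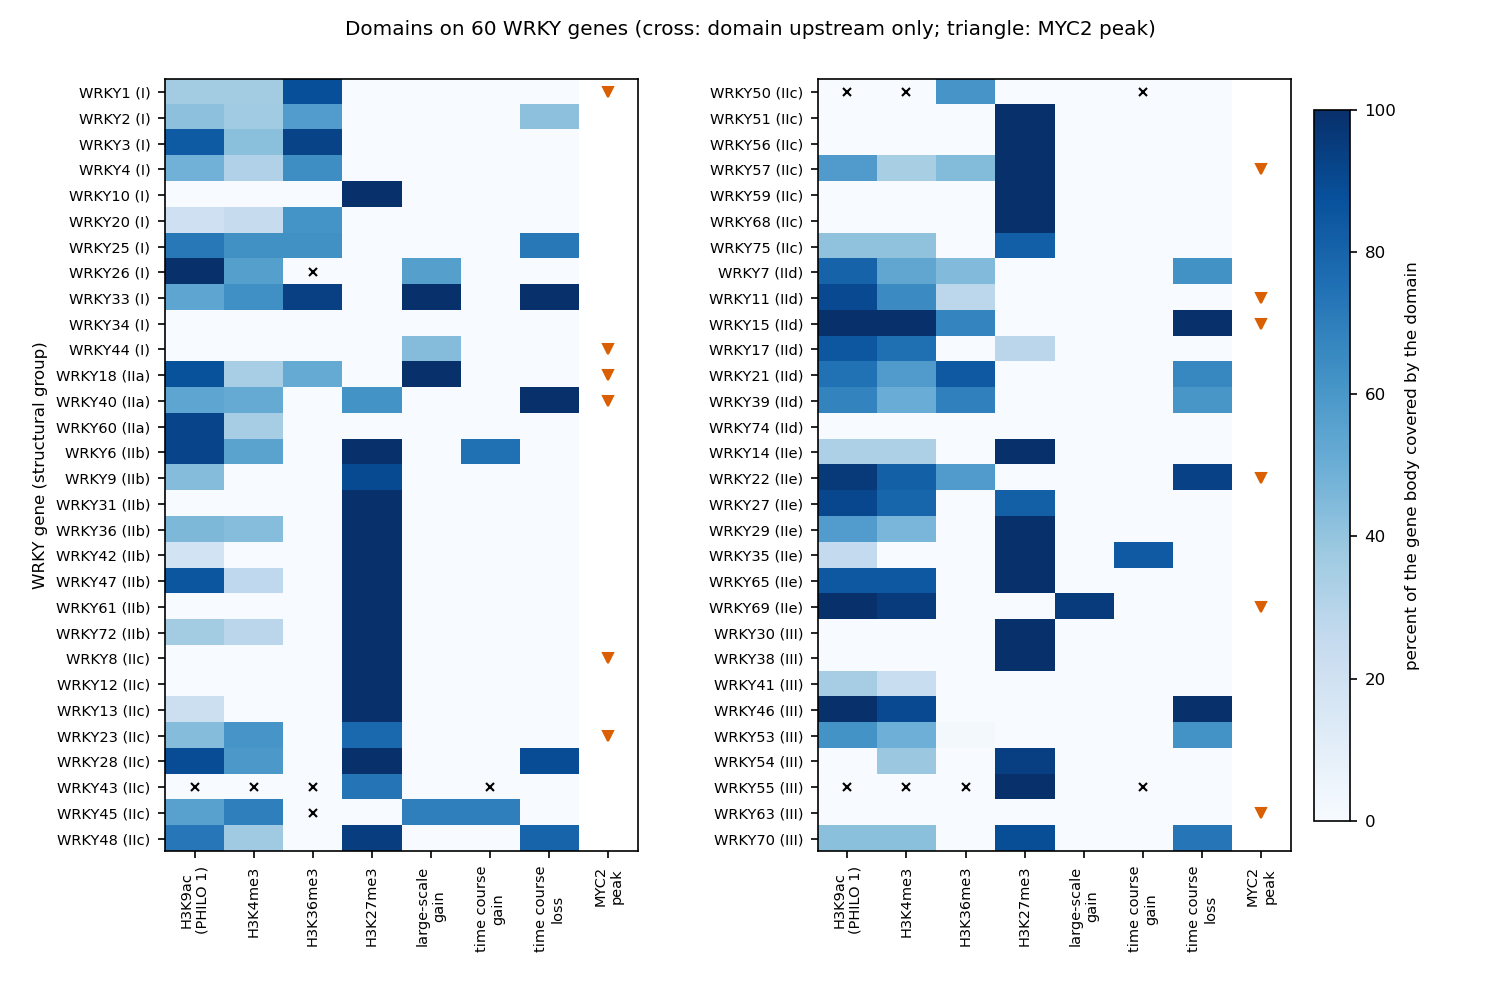
Percent of the gene body of each of the 60 WRKY genes (rows, ordered within WRKY groups I, IIa to IIe and III) that was covered by a domain of each list (columns), with a cross where a domain lay in the upstream window only and a triangle for a MYC2 peak. H3K27me3 fills groups IIb (8 of 8) and IIc (13 of 15) and leaves group I (1 of 11) and IId (1 of 7) nearly empty.

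By level, H3K4me3 was highest at WRKY7 (3.47), WRKY11 (3.22) and WRKY3 (3.14) among members whose own body carried it, and lowest at WRKY60 (0.68), WRKY29 (0.85) and WRKY40 (1.04). H3K36me3 on the gene body was highest at WRKY20 (2.29) and lowest at WRKY2 (0.34). At WRKY43, WRKY50 and WRKY55 the H3K9ac and H3K4me3 domains covered 0% of the gene body and lay on the neighbours AT2G46110, AT5G26180 and AT2G40730, so their entries in these lists come from the upstream window alone. The same held for H3K36me3 at WRKY26, WRKY43, WRKY45 and WRKY55, which left 17 members with H3K36me3 on the body. No list of a mark for any library held WRKY34, WRKY44, WRKY63 or WRKY74, 4 members in all. Of these WRKY34, a pollen gene, and WRKY74 were in no list at all, WRKY63, an abscisic acid response gene, had only a MYC2 peak, and WRKY44 (TTG2), which directs trichome and seed coat development, had a pooled H3K9ac domain (0.50), a large-scale JA gain and a MYC2 peak.

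After 2 h JA, fewer WRKY genes gained H3K9ac than lost it in the time course. In the time course 14 members lay in domains lower after JA (23.3% beside 14.2% of all genes) and 6 in domains higher after JA (10.0% beside 18.4%). In the large-scale experiment 6 members lay in gains (10.0% beside 11.3%), and no list of its losses was used here. Only WRKY45 was in both gain lists (1.67% beside 6.06%), 11 members were in either (18.3% beside 23.7%), and 36 of the 60 were in no JA list. Each condition is 1 merged count, so these values have no replicate spread and no test.

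The largest decreases were at WRKY15, WRKY70, WRKY28, WRKY48, WRKY22 and WRKY53. WRKY15 (AT2G23320), a group IId gene of oxidative and osmotic stress responses, had 911 reads after JA and 1493 in the control, a log2 ratio of JA over control of -0.70 (95% interval -0.82 to -0.58) over a domain of 2.8 kb. WRKY70 (AT3G56400), a node between salicylic acid and JA signalling that is activated by the former and represses the latter, had 288 beside 457 and -0.65 (-0.87 to -0.44). WRKY28 had 348 beside 544 and -0.63 (-0.83 to -0.43). At all of these genes the whole counting interval lay below 0. WRKY48 had 750 beside 1112 and -0.55 (-0.69 to -0.42), WRKY22 had 761 beside 1106 and -0.52 (-0.66 to -0.39), and WRKY53 (AT4G23810), a regulator of leaf senescence, had 232 beside 332 and -0.50 (-0.75 to -0.26).

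Smaller decreases followed at the other 8 members. WRKY7 had 648 beside 875 reads and -0.42 (-0.57 to -0.27), and WRKY39, also of group IId, had 537 beside 635 and -0.23 (-0.40 to -0.06). WRKY33 (AT2G38470), which drives camalexin synthesis and defence against necrotrophic fungi, had 1532 beside 1799 and -0.22 (-0.32 to -0.12). With WRKY15, WRKY21, WRKY7 and WRKY39, 4 of the 7 genes of group IId lay in loss domains, as did 3 of the 9 of group III (WRKY46, WRKY53 and WRKY70). The domains over WRKY40 (1829 beside 2370, -0.36), WRKY46 (1876 beside 2210, -0.22), a gene of osmotic and salicylic acid responses, and WRKY25 (2045 beside 2358, -0.19), a heat response gene, were 9.4, 8.0 and 5.4 kb wide and lay mostly on a neighbouring gene. At WRKY21 (501 beside 567, -0.16) and WRKY2 (614 beside 680, -0.13) the interval covered 0.

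**Figure D4:**
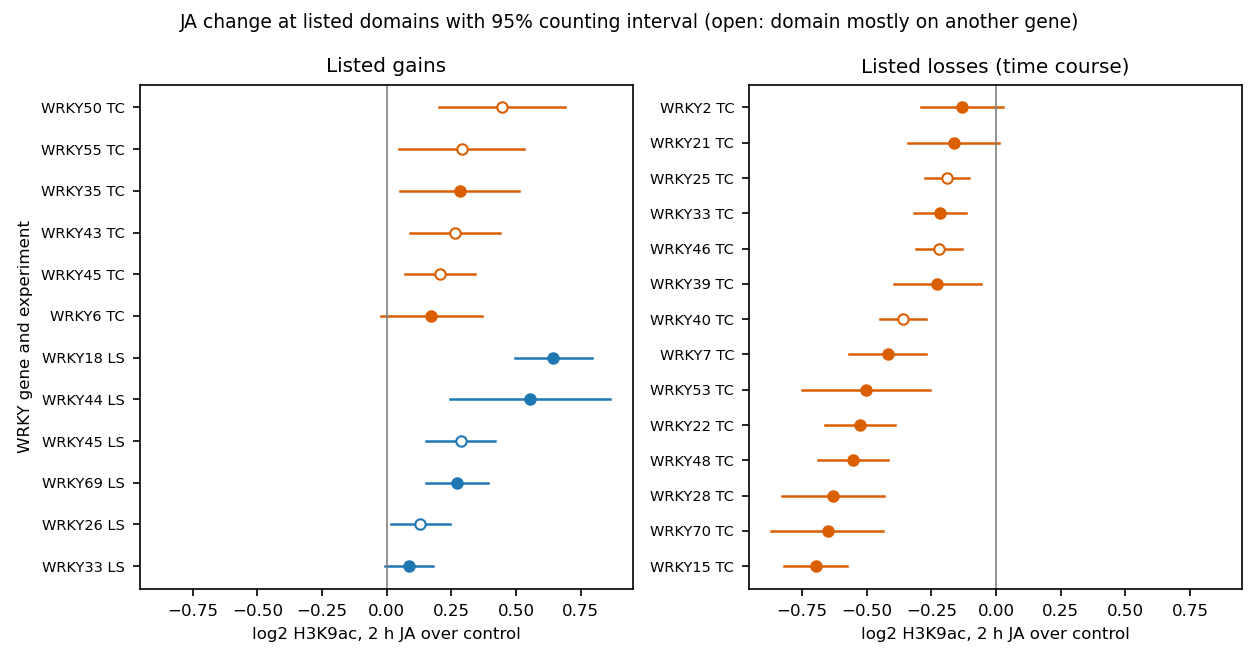
Log2 ratio of H3K9ac reads after 2 h JA over control (x axis) at each WRKY gene in a JA list, with 95% counting intervals, for gains of the large-scale experiment (LS) and the time course (TC) and for time course losses; open points mark domains mostly on another gene. Losses run from -0.70 at WRKY15 to -0.13 at WRKY2 and gains from 0.09 at WRKY33 to 0.64 at WRKY18.

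Among the loss domains, the members' median decrease was 0.39 on the log2 scale, beside 0.23 over the 3882 genes with a loss. Before treatment, all 14 had H3K9ac in all 5 libraries and H3K4me3 (93.7% and 91.7% of genes with a loss), 9 had H3K36me3 (64.3% beside 76.7%) and 4 had H3K27me3 (28.6% beside 26.4%), namely WRKY28, WRKY40, WRKY48 and WRKY70. Their untreated level had a median of 1.90 in PHILO and 1.37 in regular libraries, beside 1.95 and 1.31 for the 24 acetylated members without a loss.

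The gains were led by WRKY18 and WRKY44 in the large-scale experiment. WRKY18 (AT4G31800), the group IIa partner of WRKY40, had 932 reads after JA beside 629 in the control and a log2 ratio of 0.64 (0.50 to 0.79) over 3.4 kb that lay mostly on the gene. WRKY44 (AT2G37260) had 210 beside 151 and 0.55 (0.24 to 0.86) over 1.0 kb starting at the gene start. WRKY69 (AT3G58710) had 1213 beside 1060 and 0.27 (0.15 to 0.39). None of these genes was in a time course list. WRKY26 (AT5G07100), a heat response gene, had 1271 beside 1225 and 0.13 (0.02 to 0.24), in a domain mostly on AT5G07090, and WRKY33 had 1861 beside 1849 and 0.09 (-0.01 to 0.18), an interval that covered 0. WRKY26 lay outside the rule for genes given in full and was added after its values were seen, as was WRKY50 below.

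In the time course, 3 of the 6 gains touched only the window before the gene and lay on a neighbour. These were WRKY50 (334 beside 248, 0.44), a repressor of JA responses at low oleic acid, WRKY55 (317 beside 262, 0.29) and WRKY43 (599 beside 504, 0.26). WRKY35 (344 beside 286, 0.28, interval 0.05 to 0.51) and WRKY6 (458 beside 411, 0.17, interval -0.02 to 0.37) had domains wholly within their window. WRKY45 (AT3G01970), an activator of phosphate uptake, had 970 beside 850 and 0.21 (0.07 to 0.34) here and 1003 beside 868 and 0.29 (0.15 to 0.42) in the large-scale experiment, both in domains mostly on its neighbour AT3G01980. In all, 6 of the 12 gain domains and 3 of the 14 loss domains lay mostly on another gene. The matching shares over all genes were not computed, so these counts describe the assignment only. WRKY6, WRKY35, WRKY43 and WRKY55 combined a gain with H3K27me3 (6.67% of members beside 6.63% of genes).

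WRKY33 appeared as a gain in the large-scale experiment and as a loss in the time course, with nearly the same domain (5.6 and 5.4 kb, both starting at -1834 bp from the gene start). It was the only member with this pair, 1.67% of the family beside 1.01% of genes. The difference between the experiments could not be tested on 1 merged count per condition.

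W-box cores were searched before the gene starts because members act on W-boxes. TTGAC was found on either strand in the 500 bp before the start at 46 of the 60 members, 76.7% beside 67.4% of all protein-coding genes. All 14 members with a loss had at least 1 core, beside 69.1% of the 3882 genes with a loss, and 7 of the 11 members with a gain did (63.6%). The most cores were in front of WRKY11, with 5, and of WRKY29 and WRKY45, with 4 each. The G-box CACGTG was found in the same window at 8 members (13.3% beside 9.35%). Of these, 2 were among the 14 with a loss (14.3% beside 11.5% of genes with a loss). Another 3 were among the 11 with a gain (27.3%), namely WRKY43, WRKY44 and WRKY45. The gain domains at WRKY43 and WRKY45 lay mostly on neighbouring genes. Shares over all genes with a gain were not computed for either word. A match of so short a word is a description of the sequence only.

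The 150 bp before the start of 4 genes with a loss are shown for their W-box cores, from the RefSeq TAIR10.1 sequence in the direction of the gene. They were chosen because they hold a core, whereas the same 150 bp at WRKY22, WRKY28 and WRKY40, also with a loss, held 0 cores. Capitals mark TTGAC or, on the other strand, GTCAA.
WRKY15 (chr2:9924736-9924885, plus strand): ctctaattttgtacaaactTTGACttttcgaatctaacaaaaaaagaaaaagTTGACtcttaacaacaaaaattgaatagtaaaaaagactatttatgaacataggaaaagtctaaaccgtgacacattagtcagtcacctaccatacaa
WRKY33 (chr2:16108085-16108234, plus strand): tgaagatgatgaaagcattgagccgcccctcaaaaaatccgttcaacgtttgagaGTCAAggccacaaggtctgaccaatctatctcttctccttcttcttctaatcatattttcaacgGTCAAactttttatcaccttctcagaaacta
WRKY53 (chr4:12393983-12394132, minus strand): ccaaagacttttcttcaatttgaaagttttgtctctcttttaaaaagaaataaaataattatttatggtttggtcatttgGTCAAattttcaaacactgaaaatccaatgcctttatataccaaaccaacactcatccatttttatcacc
WRKY70 (chr3:20910624-20910773, minus strand): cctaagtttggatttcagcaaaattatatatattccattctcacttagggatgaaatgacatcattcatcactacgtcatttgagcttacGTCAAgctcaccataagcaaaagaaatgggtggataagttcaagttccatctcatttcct

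MYC2 peaks lay at 12 members, which carried 13 of the 3464 peaks (20.0% of members beside 10.3% of all genes). By the methods, peaks were called on 2 h JA against control, so a fold compares these conditions and is not enrichment over background. Folds of the 13 peaks as given by the peak caller ran from 2.11 to 3.56. Over all peaks the median was 2.59 and the range 1.45 to 11.1. By fold the 13 ranked between 422 and 2863 of 3464. The highest were at WRKY8 (3.56, summit 710 bp upstream of the gene start), WRKY22 (3.51, 1018 bp upstream) and WRKY57 (3.42, 1277 bp downstream, in an intron). Of the 13 summits, 9 lay upstream of the gene start and 3 inside the gene. At WRKY15, WRKY18, WRKY22 and WRKY23 the summit lay outside the window, which only the edge of the peak reached. Asking for the summit inside the window left 8 members, and no matching share over all genes was computed. The list is 1 call over libraries, so peaks have no replicate spread.

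WRKY40 was the only member with 2 peaks, of fold 3.19 at 707 bp upstream and 2.95 at 37 bp downstream of its start, and both summits lay in its time course loss domain. Its partner WRKY18 had a peak of fold 2.83 at 1150 bp upstream. WRKY11 (2.97, 744 bp upstream), WRKY23 (2.84, 1141 bp upstream), WRKY69 (2.82, 1061 bp downstream, in an intron), WRKY63 (2.57, 509 bp upstream), WRKY44 (2.29, 192 bp upstream) and WRKY1 (2.11, 144 bp upstream) had 1 peak each. WRKY15 had a peak of fold 2.71 whose summit lay 1540 bp downstream of the start and past the gene end.

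Some MYC2 peaks at WRKY genes stood beside gains and others beside losses. WRKY18, WRKY44 and WRKY69 combined a peak with a gain (5.0% of members beside 5.51% of genes), and WRKY15, WRKY22 and WRKY40 combined a peak with a loss (5.0% beside 1.80%). Read from the peaks, 25.0% of the 12 members had a gain and 25.0% a loss, beside 53.6% and 17.5% of all genes with a MYC2 peak. H3K9ac was listed in all 5 libraries at 9 of the 12 (75.0% beside 84.1%) and H3K27me3 at 4 (33.3% beside 34.5%). Of the 14 members with a loss, 3 had a peak (21.4% beside 12.7%). By summit, 3 of the 13 peaks lay in a loss domain, namely that of WRKY15 and both of WRKY40. The loss domain at WRKY40 lay mostly on a neighbouring gene. The WRKY22 summit lay outside its loss domain. A gain domain held 1 summit (WRKY69), and those of WRKY18 and WRKY44 lay outside theirs. A further 2 summits lay in an H3K27me3 domain (WRKY8 and WRKY57). Of the 13 summits, 7 lay in no H3K9ac domain of any PHILO library. Matching shares over all MYC2 peaks were not computed, so these summit counts are descriptions only.

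**Figure D5:**
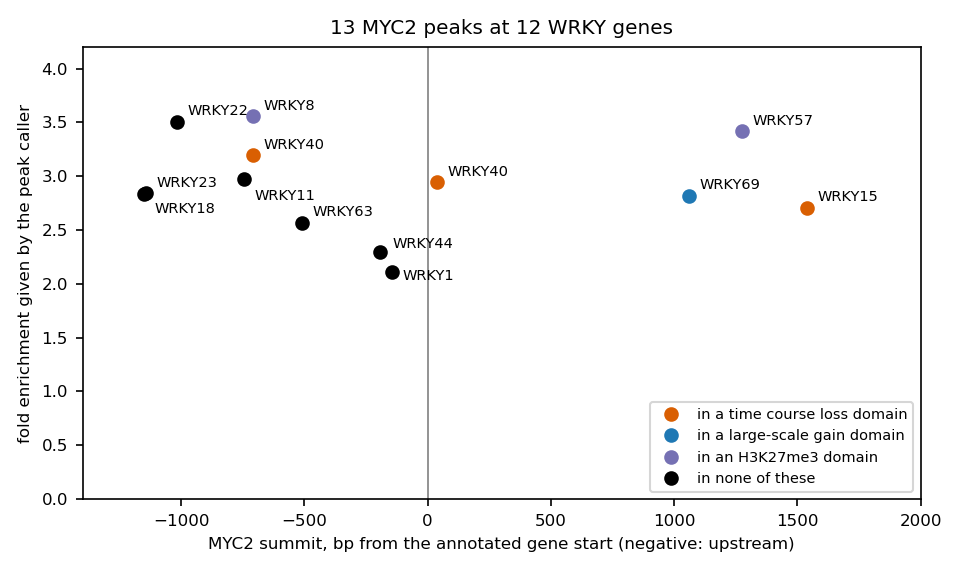
The 13 MYC2 peaks at 12 WRKY genes, with the distance of the summit from the gene start in bp (x axis) and the fold given by the peak caller (y axis), coloured by whether the summit lay in a time course loss, a large-scale gain or an H3K27me3 domain. Folds run from 2.11 at WRKY1 to 3.56 at WRKY8, and 9 of 13 summits lie upstream of the start.

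The sequence under the summits was searched for the G-box CACGTG and for its variant CACGTT. Within 50 bp of the summit, CACGTG was found at 4 of 13 peaks (WRKY8, WRKY11, WRKY23 and WRKY44) beside 27.3% of all 3464 peaks, CACGTT on either strand at another 4 (WRKY18, WRKY40 upstream, WRKY57 and WRKY69) beside 20.2%, and either word at 8 beside 44.9%. The summit windows with CACGTG in capitals are shown as RefSeq TAIR10.1 sequence, each of 101 bp and in the direction of the gene, and the window of WRKY8 is left out because it overlaps an exon.
WRKY11 (chr4:15292628-15292728, minus strand): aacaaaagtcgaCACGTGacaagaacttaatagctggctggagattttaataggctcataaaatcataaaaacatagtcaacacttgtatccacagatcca
WRKY23 (chr2:19408189-19408289, minus strand): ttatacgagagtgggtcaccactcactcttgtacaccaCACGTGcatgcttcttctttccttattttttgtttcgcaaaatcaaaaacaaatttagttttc
WRKY44 (chr2:15644569-15644669, plus strand): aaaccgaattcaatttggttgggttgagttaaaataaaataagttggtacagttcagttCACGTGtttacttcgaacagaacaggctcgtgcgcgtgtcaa
In these windows the centre of the G-box lay 35.5 bp from the summit at WRKY11, 9.5 bp at WRKY23 and 11.5 bp at WRKY44.

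The windows with CACGTT are shown for comparison, with CACGTT or its reverse complement AACGTG in capitals.
WRKY40 (chr1:30382804-30382904, plus strand): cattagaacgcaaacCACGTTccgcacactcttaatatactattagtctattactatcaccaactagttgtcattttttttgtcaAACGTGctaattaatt
WRKY18 (chr4:15381577-15381677, plus strand): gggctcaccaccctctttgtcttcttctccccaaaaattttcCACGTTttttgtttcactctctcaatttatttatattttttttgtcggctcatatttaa
WRKY57 (chr1:26057056-26057156, minus strand): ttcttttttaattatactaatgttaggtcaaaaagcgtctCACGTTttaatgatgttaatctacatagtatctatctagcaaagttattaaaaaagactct
WRKY69 (chr3:21715922-21716022, plus strand): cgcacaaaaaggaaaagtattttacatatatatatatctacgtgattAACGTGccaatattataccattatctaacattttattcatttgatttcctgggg
The upstream peak of WRKY40 held 2 such sites, and the others 1 each. The peaks at WRKY22, WRKY15, WRKY63, WRKY1 and near the start of WRKY40 had neither word within 50 bp of the summit.

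Of 17 genes that act with WRKY factors, 13 or 14 were acetylated in each library, beside 67.4% to 70.3% of all genes. H3K4me3 was listed at 12, H3K36me3 at 9 and H3K27me3 at 9, beside 67.7%, 60.7% and 38.2% of all genes. The 17 genes comprise the VQ partner proteins SIB1, SIB2, MKS1 and JAV1, the kinases MPK3, MPK4 and MPK6, genes of salicylic acid signalling, and targets in camalexin synthesis and immunity. Time course losses lay at 5 of them (beside 14.2% of all genes), all in salicylic acid signalling, whereas PAD4 and PR1 of the same pathway were not in the loss list and the active markers RBCS1A and UBQ10 were. Among the 5, control exceeded JA by 0.50 on the log2 scale at SARD1 and by 0.40 at CBP60G, which encode activators of ICS1, by 0.34 at EDS1, by 0.29 at ICS1, the salicylic acid synthesis enzyme, and by 0.15 at NPR1, the salicylic acid receptor. Gains lay at JAV1 in both, a VQ protein that restrains JA defence (0.35 and 0.40 in the respective experiments), at SARD1 in the large-scale experiment (0.18) and at MPK6 in the time course (0.18). SARD1 thus had the same pair of a large-scale gain and a time course loss as WRKY33, and so did the housekeeping marker UBQ10 (0.32 and 0.25). MYC2 peaks lay at 4 genes (beside 10.3% of all genes), namely SIB1 (fold 3.31), SARD1 (2.98), JAV1 (2.83) and PAD4 (1.80).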

How the data were processed

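The series holds 163 samples in 56 groups, of which the Col-0 libraries with deposited domain or peak lists were used. The members and gene lists were chosen with earlier results of these data known. Reads were mapped by the authors to TAIR10 (Bowtie2 2.4.1), who called domains of 200 bp bins with epic2 0.0.52 (named SICER in the submitters' processing notes) and MYC2 peaks with MACS2 2.2.7.1, after merging replicates for all but the 5 untreated H3K9ac libraries. Per the file headers, each domain has treatment and control counts (raw reads), a log2 ratio scaled by library totals and an FDR (adjusted p-value), and each peak has a fold enrichment and a −log10 q-value. The deposited counts served for the tests and intervals. The authors' log2 ratio is the level over IgG used here, and JA ratios were recomputed from the counts with the file's own scaling constant. FDR values served as a filter only, and neither they nor the q-values are reported. In the JA lists the authors' log2 and FDR columns are their own comparison of JA with control. All per-sample columns belonged to mapped samples (0 left unused).

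Overlaps were computed in Python 3.11.15 with pandas 2.3.3 and SciPy 1.17.1 on the gene models of RefSeq TAIR10.1, whose nuclear sequence is that of TAIR10. Where several domains met a gene, the one with the longest overlap gave its level. Intervals are exact binomial (95%) on treatment and control counts. Regular and PHILO libraries were compared without a block, with edgeR 4.0.16 (quasi-likelihood, TMM) on counts at domains with identical ends and with limma 3.58.1 on log2 levels after subtraction of library medians (R 4.3.3), both with Benjamini-Hochberg adjustment over all features at 0.05. Both fits were tested on simulated data. GEO numbers the replicates without naming separate cultures, so p-values measure the spread between these libraries.

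Members given in full were those with a gain in both experiments, a loss or a MYC2 peak, the 3 highest and 3 lowest H3K9ac levels, partial H3K9ac, the 3 highest H3K27me3 levels, and H3K27me3 with a gain. Others were named after their values were seen. Alternatives comprised other windows, overlaps, FDR and fold thresholds, DESeq2 1.42.0, other scaling, a replicate block and leaving out each library. Sequences were read from the RefSeq TAIR10.1 genome.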

Additional observations from a re-analysis of the deposited data

Results flagged for a closer look

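WRKY33 was listed with opposite JA directions in the 2 experiments. In the large-scale experiment its H3K9ac was higher after 2 h JA by 0.09 on the log2 scale (1861 reads beside 1849), and in the time course the control was higher than 2 h JA by 0.22 (1799 beside 1532). The difference between the experiments was not tested, since each condition is 1 merged count, and the counting interval of the large-scale value covered 0.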

How the results depend on the processing

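Of 80 alternative values of counts and medians, 57 stayed near the reported one (a count within 1.5 times) and 23 moved. Asking for a log2 level over IgG of at least 1 took the members with pooled H3K9ac from 47 to 24. Asking for a JA change of at least 0.5 on the log2 scale took large-scale gains from 6 to 2, time course gains from 6 to 0, gains in both from 1 to 0 and losses from 14 to 6. Time course gains fell from 6 to 3 with the gene body alone or with an FDR under 0.001, and to 2 for domains mostly on the member, where gains in both went from 1 to 0. A window of 2 kb raised gains in both to 2, adding WRKY33. MYC2 members went from 12 to 5 with the gene body alone and to 4 at a fold of at least 3. A setting chosen after seeing the data, that the counting interval exclude 0, left 5 large-scale gains, 5 time course gains and 12 losses.

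Between methods, the 276 domains of edgeR became 93 with DESeq2 (69.9% of them higher in PHILO, beside 54%) and 1154 with library totals in place of TMM (100% higher), and 80 to 402 when 1 library was left out (80 without regular replicate 1, 113 without regular replicate 2). The 78 genes of limma became 15223 without centring (99.8% higher, beside 39.7%) and 0 whichever library was left out. H3K9ac in all 5 libraries held 38 to 39 members with 1 library left out. Replicate numbers did not pair the libraries (correlations of same-numbered libraries -0.036 and 0.016 over 1167 domains), and a replicate block gave 220 domains by edgeR and 0 genes by limma. Among the limma settings, only the one without centring called WRKY genes (34 members), and the edgeR and DESeq2 fits held no domain at a member. Depth limits what the lists hold, since members under the callers' thresholds have no value.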
